A study of Bos taurus with 179 samples.

Results

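GATM, HSD17B1, AMHR2 and FSHR are 4 genes listed as markers of granulosa cells, the somatic cells that surround the oocyte in the follicle, and their counts were followed in single growing oocytes of Bos taurus. They were found by their symbols in the gene sheets of the study, which give 1 gene ID for each, and are 4 of the 21218 gene IDs in the deposited count table. The IDs are ENSBTAG00000005586 for GATM, ENSBTAG00000047604 for HSD17B1, ENSBTAG00000018524 for AMHR2 and ENSBTAG00000032424 for FSHR. The sheets sort genes by detection in the size groups of these same oocytes. FSHR stands among the genes detected only under 60 μm, GATM and HSD17B1 among those with low detection only at 110–119 μm and only over 120 μm, and AMHR2 among those with low detection in every group. Differences with size over all groups are therefore given as a description, and the slope of each gene was tested with the groups that placed it in its sheet left out.

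The oocytes came from slaughterhouse ovaries. The paper states that fully-grown oocytes were aspirated from follicles at the surface, and that growing ones were freed by slicing the cortex and filtering. They were cleaned mechanically of the cells around them and given a diameter each. The labels do not give the route of each oocyte, so size and route of collection cannot be told apart. Polyadenylated mRNA of each oocyte was amplified and sequenced, in replicate 1 with reads of 150 bp and in replicate 2 with reads of 75 bp. The labels name no animal, breed, age or treatment, no group was treated, and p-values therefore measure the spread between library sums only. RNA of the oocyte and RNA of follicle cells that stayed attached to it cannot be told apart in such a library, nor can fewer attached cells from less RNA per cell. All levels here are shares of the counts of a library. Less RNA of a gene therefore cannot be told apart from more of all other RNA in a larger oocyte.

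The oocytes that passed the quality filters of the study, 97 in replicate 1 and 68 in replicate 2, measured 48 to 135 μm. By diameter, replicate 1 held 3 oocytes under 60 μm, 17 of 60–69 μm, 16 of 70–79 μm, 16 of 80–89 μm, 12 of 90–99 μm, 11 of 100–109 μm, 12 of 110–119 μm and 10 over 120 μm. In the same order, replicate 2 held 18, 8, 7, 8, 9, 7, 7 and 4 oocytes. An oocyte had between 277126 and 8038061 counts on genes, with a median of 1763520. In replicate 1 the median total was lowest in the middle of the range, with 822040 counts at 90–99 μm and 627581 counts at 100–109 μm. In replicate 2 it was lower in the large oocytes, with 1332591 counts at 110–119 μm and 1015871 counts over 120 μm.

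Granulosa cells multiply around the growing oocyte, send processes through the zona pellucida and feed it through gap junctions. FSHR, the receptor for follicle-stimulating hormone, raises cAMP in these cells, and AMHR2 is the type II receptor that binds anti-Müllerian hormone and signals through SMAD proteins. HSD17B1 turns estrone into estradiol in the last step of estrogen synthesis. GATM makes guanidinoacetate from arginine and glycine, the first step of creatine synthesis.

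The enzymes GATM and HSD17B1 were counted in most oocytes and their levels fell with diameter among the oocytes under 110 μm. As a description only, both were also lower from 110 μm on, where the groups that placed them in their sheets lie, than below 70 μm. FSHR did not pass its test and AMHR2 was too rare to test. GATM had a total of 2218 counts and at least 1 count in 119 of these oocytes (72.1%, 95% exact binomial interval 64.6 to 78.8). HSD17B1 had 999 counts in 123 oocytes (74.5%, interval 67.2 to 81.0). FSHR had 191 counts in 45 oocytes (27.3%, interval 20.6 to 34.7). AMHR2 had 25 counts in 10 oocytes (6.06%, interval 2.94 to 10.9). The libraries carried no molecular identifiers, so all intervals cover counting error only.

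**Figure D1:**
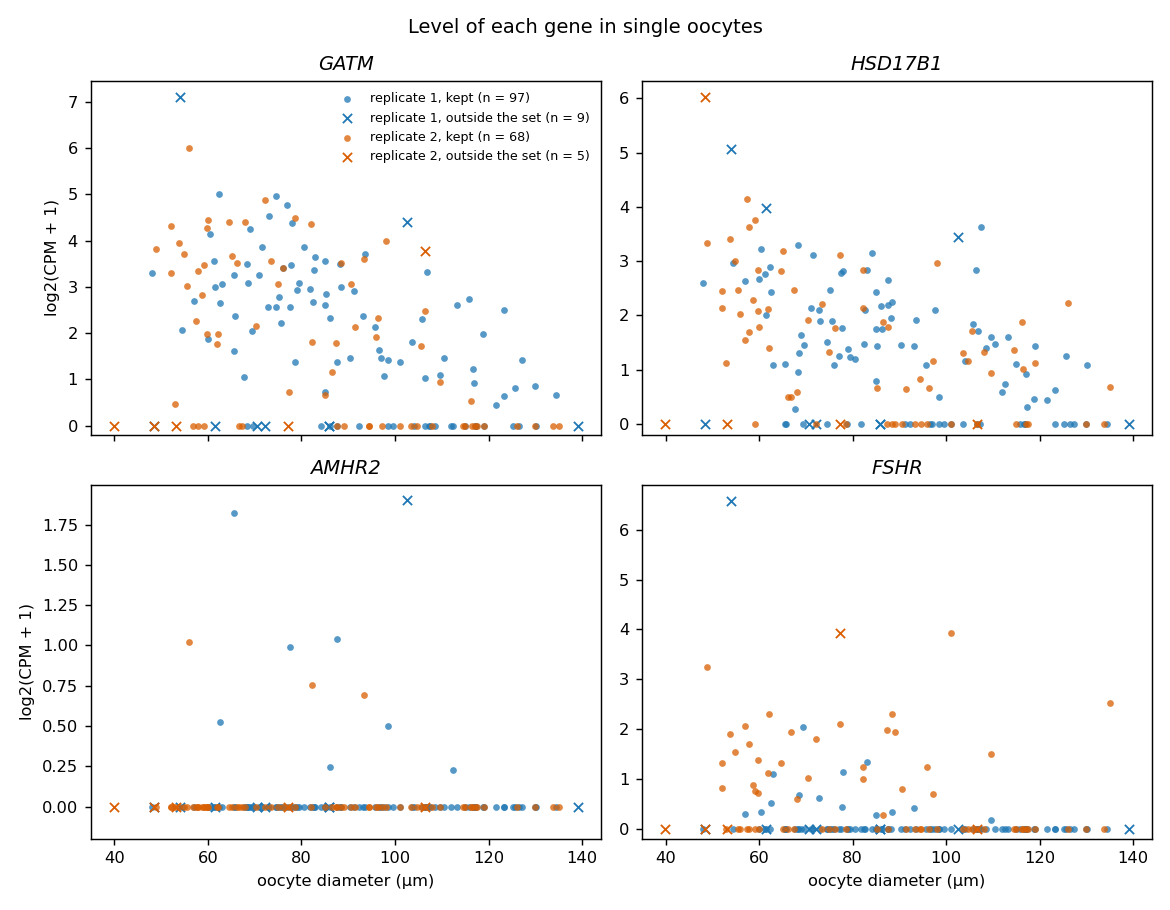
Level of the 4 genes, as log2(CPM + 1), against the diameter of each oocyte in μm, where CPM is the count divided by the oocyte's own total and multiplied by 1000000. Dots are the 97 and 68 oocytes of the quality-filtered set and crosses the 14 oocytes outside it, both in blue for replicate 1 and orange for replicate 2. GATM and HSD17B1 were high and variable below 90 μm and low above 110 μm, FSHR dots above 0 are mostly orange, and AMHR2 was at 0 in all but 10 oocytes of the set.

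The level of GATM in an oocyte was its count divided by the oocyte's own total, times 1000000 (CPM). Under 60 μm the lowest, median and highest oocyte had 3.19, 5.43 and 8.83 CPM in replicate 1 and 0, 8.99 and 63.1 CPM in replicate 2. At 60–69 μm they had 0, 6.93 and 31 CPM in replicate 1 and 0, 6.72 and 20.2 CPM in replicate 2. At 70–79 μm all 23 oocytes had a count of GATM, from 1.58 CPM through a median of 8.02 to 30.1 CPM in replicate 1 and from 0.663 through 9.58 to 28.5 CPM in replicate 2. The highest median of each replicate was that of 70–79 μm, although the oocytes of the 3 groups overlapped widely.

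At 80–89 μm the median of GATM was 5.79 CPM in replicate 1 (0 to 13.6) and 1.85 CPM in replicate 2 (0 to 19.6). At 90–99 μm it was 1.75 CPM (0 to 12) and 3.41 CPM (0 to 14.8), and at 100–109 μm 1.03 CPM (0 to 9.06) and 0 CPM (0 to 4.59). Both replicates were low from 100 μm on, although single oocytes still overlapped those of the smaller groups. At 110–119 μm the median was 0.45 CPM in replicate 1 (0 to 5.71), and in replicate 2 only 1 of 7 oocytes had a count, at 0.446 CPM. Over 120 μm the median was 0.564 CPM in replicate 1 (0 to 4.66), and all 4 oocytes of replicate 2 were at 0.

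Counts were added up within each combination of size group and replicate, which gave 16 sums, and the slope of the log2 level on the mean diameter was fitted with edgeR's quasi-likelihood model, with the replicate as a block. Over all size groups the slope per 10 μm was -0.64 for GATM (SE 0.10), -0.36 for HSD17B1 (SE 0.06) and -0.11 for FSHR (SE 0.16), and the median over all genes tested was -0.02. No p is given for these slopes, since the sheets had sorted the genes over the same range. Of the 14087 genes tested 33% were called at an adjusted p under 0.05, 18.1% as falling and 14.8% as rising.

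The test was made without the groups that placed each gene in its sheet, a choice made after the data were seen. Under 110 μm GATM fell by 0.41 on the log2 scale per 10 μm (SE 0.12, edgeR's quasi-likelihood test, Benjamini-Hochberg adjusted p = 0.0199). HSD17B1 fell by 0.33 on the log2 scale per 10 μm (SE 0.09, adjusted p = 0.0162). Both passed, where 21.3% of all genes were called and 9.13% were called as falling. For FSHR the slope in oocytes of 60 μm and above was -0.18 (SE 0.19, adjusted p = 0.546). The sheets had also used detection in the groups that remained, so these tests are not fully independent of them.

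Over all size groups each replicate alone gave a negative slope for both enzymes. GATM had a slope of -0.54 in replicate 1 and -0.74 in replicate 2, each from edgeR on 8 sums. The slopes of HSD17B1 were -0.38 and -0.32. Leaving out the oocyte with the most counts of the gene, which held 8.30% of all GATM counts and 6.11% of all HSD17B1 counts, left the slopes at -0.62 and -0.35.

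HSD17B1 had its highest median in the smallest oocytes in both replicates. Under 60 μm its lowest, median and highest oocyte had 5.09, 5.19 and 6.86 CPM in replicate 1 and 0, 4.16 and 16.6 CPM in replicate 2. The 3 groups from 60 to 89 μm had medians of 1.73, 2.57 and 3.08 CPM in replicate 1 and 2.48, 2.40 and 1.51 CPM in replicate 2, with no oocyte above 8.87 CPM. From 90–99 μm on the medians were 0.207, 1.64, 0.586 and 0 CPM in replicate 1 and 0.568, 1.24, 1.01 and 0.299 CPM in replicate 2. The groups overlapped throughout, and the third highest oocyte of the quality-filtered set, at 11.5 CPM, measured 107.5 μm. That value rests on 4 counts in a library of 349196.

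The ends of the growth range were also compared without assuming a straight line, as the mean of the groups from 110 μm on minus the mean of the groups below 70 μm in the fit with 8 size groups. Below 70 μm, GATM summed to 8.47 CPM in the 20 oocytes of replicate 1 and 10.2 CPM in the 26 oocytes of replicate 2. From 110 μm on it summed to 0.847 CPM in 22 oocytes and 0.0701 CPM in 11 oocytes. As a share of the counts GATM was 14.2-fold lower in the larger oocytes, a log2 difference of -3.82 (SE 0.56). Without the replicate 1 sum over 120 μm the log2 difference was -7.00, since the replicate 2 sum of that size holds 0 counts of GATM.

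HSD17B1 summed to 3.95 and 4.70 CPM below 70 μm in replicates 1 and 2, and to 0.694 and 1.12 CPM from 110 μm on. As a share of the counts it was 4.75-fold lower in the larger oocytes, a log2 difference of -2.25 (SE 0.50). With each oocyte thinned to 250000 counts the log2 difference was -4.44, where both sums over 120 μm held 0 counts of HSD17B1. FSHR had a log2 difference of -3.29 (SE 1.32), which was -5.40 without the replicate 2 sum over 120 μm, where 1 oocyte holds all 8 of its counts from 110 μm on. These differences span the groups that placed the genes in their sheets and are a description, with no p. In this comparison 29.9% of the genes tested were called and 16.2% were called as falling, and the median log2 difference of all genes was -0.12.

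Between successive size groups no step passed the test for any member. Of 21 comparisons, 7 steps for each of 3 genes, edgeR called 0 at an adjusted p under 0.05, with 3 at an unadjusted p under 0.05, and DESeq2 called 1. Ranked by the summed level within replicate 1, GATM had 10.6 CPM at 70–79 μm, 9.43 CPM at 60–69 μm, 6.07 CPM at 80–89 μm and 5.13 CPM under 60 μm, and then 3.37, 1.48, 0.921 and 0.741 CPM in the groups from 90–99 μm on. In replicate 2 the order was 11.9 CPM under 60 μm, of which 1 oocyte held 35.1% of the counts, 9.62 CPM at 70–79 μm, 6.43 CPM at 60–69 μm, 5.72 CPM at 90–99 μm and 4.52 CPM at 80–89 μm. In the groups of 70–79, 90–99 and 80–89 μm the oocyte with the most counts held 46.9%, 59.4% and 65.2% of them. The 3 largest groups followed with 1.04, 0.102 and 0 CPM. The order of the smaller groups thus differed between the replicates, and the 3 largest groups came last in both. For GATM the smallest adjusted p was at the step from 80–99 μm to 100–109 μm, with a log2 difference of -2.05 (SE 0.66, edgeR adjusted p = 0.152), which is the step that DESeq2 called. For FSHR it was 0.0677 in edgeR, at the step from 100–109 μm to 110–119 μm, where both sums of the larger size held 0 counts. Over all genes, edgeR called 3.88% at the step from 100–109 μm to 110–119 μm and 0.497% at the step from 80–99 μm to 100–109 μm. At the other steps, from the smallest on, it called 0.0142%, 0.135%, 0.0%, 0.0% and, between the largest groups, 0.0071%.

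Whether an oocyte shows a count depends on its depth, so each oocyte was also thinned at random to 250000 counts, which left none of them out. GATM then remained in 15 of 21 oocytes under 60 μm, 16 of 25 of 60–69 μm, 20 of 23 of 70–79 μm and 15 of 24 of 80–89 μm. From 90–99 μm on it remained in 10 of 21, 4 of 18, 3 of 19 and 2 of 14 oocytes. HSD17B1 remained in 15, 13, 11 and 11 oocytes of the 4 smaller groups and in 3, 6, 4 and 0 of the 4 larger ones. With the depth made equal, both enzymes were found in a smaller share of the large oocytes than of the small ones. This is a description only, since the sheets had sorted both genes by detection in these same groups.

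The share of oocytes with a count at that depth was fitted on diameter with limma, as the arcsine square root of the share in each of the 16 sets of oocytes. The slope per 10 μm was -0.13 radians for GATM (SE 0.02), -0.11 radians for HSD17B1 (SE 0.02) and -0.05 radians for FSHR (SE 0.02). Over the 7918 genes fitted, 16.2% were called and 9.9% were called as falling. Because the sheets that gave the members used detection, no p is given for them and nothing is read from these slopes.

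**Figure D2:**
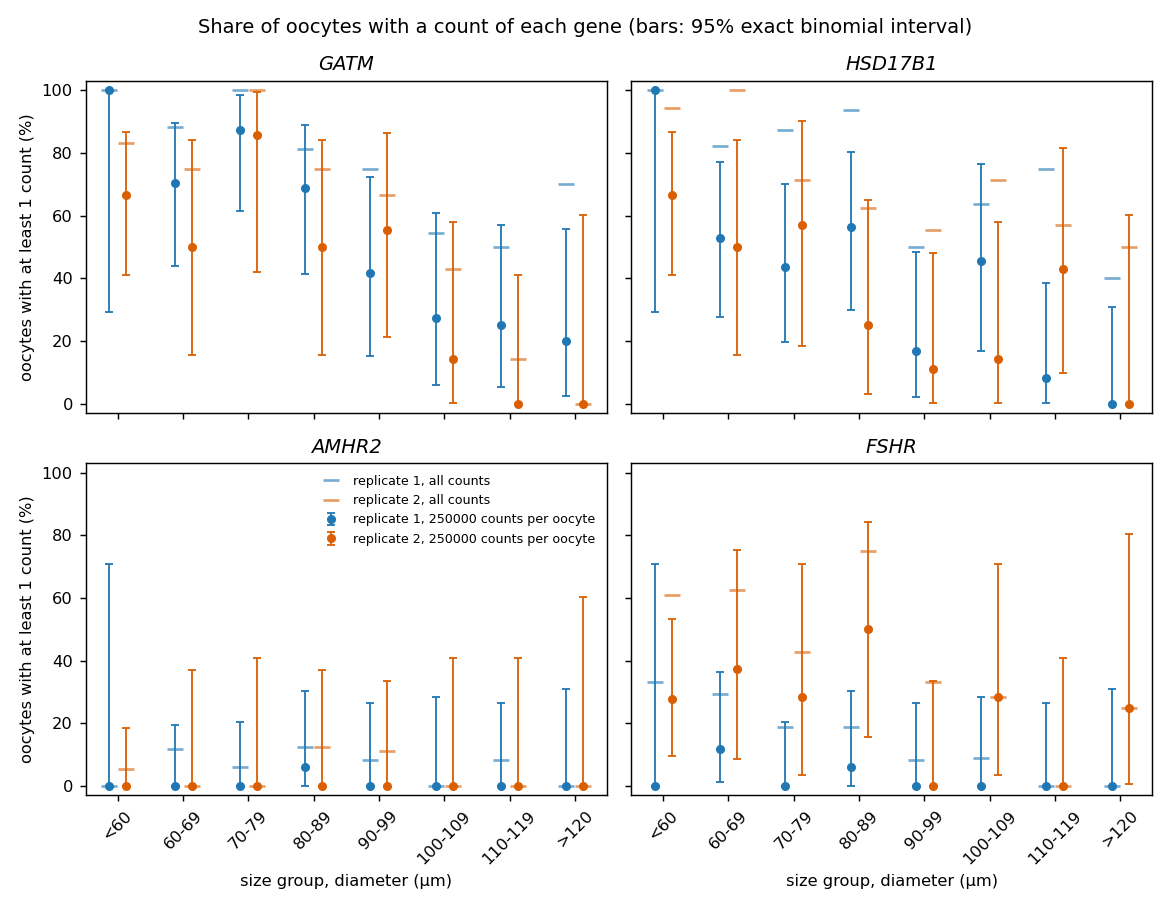
Percent of oocytes with at least 1 count of each gene, by size group in μm. Dots with bars give the share and its 95% exact binomial interval after thinning to 250000 counts per oocyte, and dashes the share with all counts, in blue for replicate 1 and orange for replicate 2. For GATM the thinned share was 14 of 16 and 6 of 7 oocytes at 70–79 μm and 2 of 10 and 0 of 4 over 120 μm.

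With all counts both enzymes were still found in many of the large oocytes. HSD17B1 had a count in 42 of 46 oocytes below 70 μm (91.3%, interval 79.2 to 97.6) and in 19 of 33 from 110 μm on (57.6%, interval 39.2 to 74.5). GATM had a count in 39 of 46 (84.8%, interval 71.1 to 93.7) and in 14 of 33 (42.4%, interval 25.5 to 60.8). The replicates differed among the large oocytes, since GATM was found in 13 of 22 in replicate 1 and in 1 of 11 in replicate 2. Their median totals were 2093404 and 1279925 counts.

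FSHR was mostly a signal of replicate 2. It had 23 counts in 14 of the 97 oocytes of replicate 1, or 0.106 CPM of all their counts, and 168 counts in 31 of the 68 oocytes of replicate 2, or 1.17 CPM. For GATM the same levels were 5.56 CPM in replicate 1 and 7.07 CPM in replicate 2, and for HSD17B1 2.47 and 3.24 CPM. The summed level of FSHR was higher in replicate 2 in 7 of 8 size groups, and at 110–119 μm both replicates were at 0. The replicates differ in read length and library batch, and the part of these in the gap was not tested.

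In replicate 1 the median oocyte was at 0 for FSHR in every size group, and the highest had 3.13 CPM, at 60–69 μm. In replicate 2 the lowest, median and highest oocyte had 0, 0.721 and 8.46 CPM under 60 μm, 0, 0.845 and 3.95 CPM at 60–69 μm, 0, 0 and 3.31 CPM at 70–79 μm and 0, 1.19 and 3.93 CPM at 80–89 μm. At 90–99 μm its highest oocyte had 1.37 CPM. At 100–109 μm 2 of 7 oocytes had a count, 1 of them with 37 counts or 14.2 CPM, which is 19.4% of all FSHR counts in the set. Over 120 μm 1 of 4 oocytes had 8 counts, or 4.78 CPM. Single oocytes thus held most of the FSHR counts found above 100 μm.

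Below 70 μm 22 of 46 oocytes had a count of FSHR (47.8%, interval 32.9 to 63.1), and from 110 μm on 1 of 33 had one (3.03%, interval 0.0767 to 15.8), which describes what the sheets had sorted FSHR by. In replicates 1 and 2 these were 6 of 20 and 16 of 26 oocytes below 70 μm, and 0 of 22 and 1 of 11 from 110 μm on. The pooled shares of FSHR thus mix the replicate with size. The slope of its level had opposite signs in the replicates, -0.52 in replicate 1 and 0.07 in replicate 2. Without the oocyte with 37 counts it was -0.20. At 110–119 μm FSHR was found in 0 of 19 oocytes, which by the exact interval allows a share of up to 17.6% of oocytes with a count at these depths, and sets no limit on the share that hold the transcript.

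AMHR2 could not be followed at this depth. Its 25 counts lay in 10 oocytes of 55.87 to 112.5 μm, and 11 of them (44.0%) in a single oocyte of 65.5 μm in replicate 1, at 2.54 CPM. A further 3 oocytes had 2 or 3 counts, and 6 had 1 count each. Both 100–109 μm and over 120 μm had 0 counts in all their 18 and 14 oocytes, which allows shares of oocytes with a count of up to 18.5% and 23.2% at these depths. After thinning, 1 oocyte of the set kept a count of AMHR2. The gene did not pass the filter on low counts, so its trend was not tested.

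A count of at least 2 of the 4 genes was found in a larger share of the small oocytes than of the large ones, while all 4 together were rare. At least 2 of them had a count in 105 oocytes of the set (63.6%, interval 55.8 to 71.0), 13 oocytes had none and 2 had all 4. By size group the share with at least 2 was 90.5% under 60 μm, 80.0% for 60–69 μm, 87.0% for 70–79 μm and 75.0% for 80–89 μm. From 90–99 μm on it was 61.9%, 33.3%, 26.3% and 28.6%. After thinning it was 76.2% under 60 μm and 0 of 14 oocytes over 120 μm. These shares are built from the same counts as the levels of each gene and are not a separate measure.

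**Figure D3:**
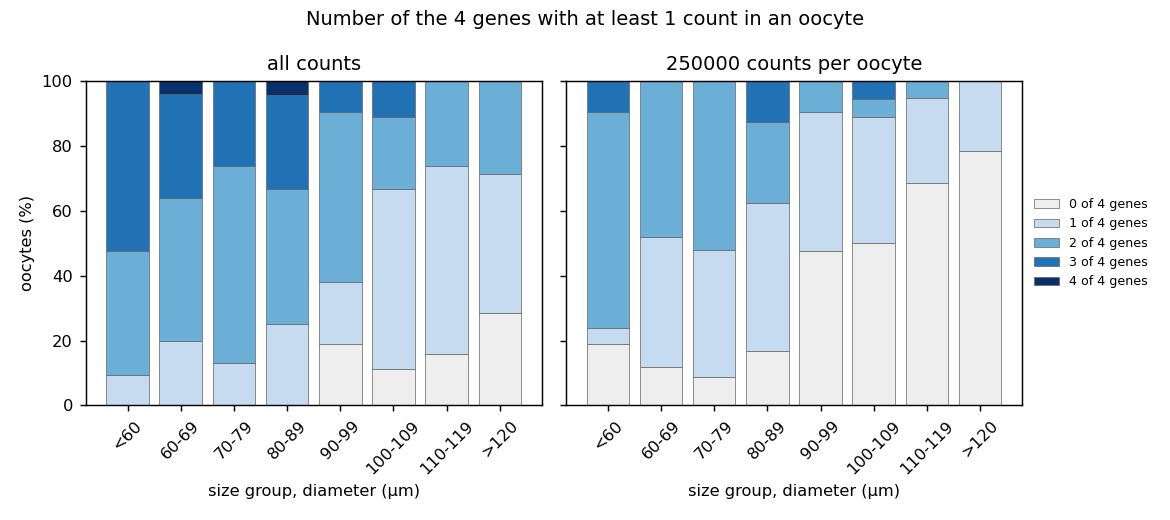
Percent of oocytes in which 0 to 4 of the 4 genes had at least 1 count, by size group in μm, with all counts on the left and after thinning to 250000 counts per oocyte on the right. Darker blue stands for more genes. With all counts no oocyte below 90 μm lacked all 4 genes, and after thinning 11 of 14 oocytes over 120 μm lacked them.

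Across oocytes of the same size group the levels of the members were weakly correlated. Over the 97 oocytes of replicate 1 the Pearson r of log2(CPM + 1) between GATM and HSD17B1 was 0.29, and 0.02 once the mean of each size group was taken out. Over the 68 oocytes of replicate 2 it was 0.36, and 0.14 within groups. For GATM and FSHR the r within groups was 0.12 and -0.05, and for HSD17B1 and FSHR 0.01 and -0.10. For GATM and AMHR2, with AMHR2 at 0 in nearly all oocytes, it was -0.14 and 0.29. The oocyte with the most GATM, 63.1 CPM, had 3.08 CPM of HSD17B1, 1.03 CPM of AMHR2 and 0 counts of FSHR, and the oocyte with the most FSHR, 14.2 CPM, had 0 counts of the other 3 genes. These are descriptions of sparse counts, in which oocytes of a replicate share a batch and differ in depth.

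The label of granulosa markers was set against the other markers of these cells. Of the 23 granulosa genes listed, 6 have a symbol paired with an ID, and CYP11A1, the first enzyme of steroid synthesis, and CCND2, a cyclin of proliferating granulosa cells, are the 2 that are not members. CYP11A1 had 31 counts in 9 oocytes of the set and CCND2 had 20 counts in 8. Summed, they ranged from 0 CPM at 90–99 μm and at 100–109 μm to 0.386 CPM at 70–79 μm, and neither passed the filter on low counts. Their summed level was 0.122 CPM under 60 μm, 0.0148 CPM at 60–69 μm, 0.142 CPM at 80–89 μm, 0.337 CPM at 110–119 μm and 0.0348 CPM over 120 μm. At such counts neither gene bears on the label. The defining markers AMH, CYP19A1, INHA and FOXL2 have no ID in the shortened copies of the sheets used here and were not analysed here. The label was thus not checked beyond these values, and the 4 genes are called by their names.

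Among markers of other cells, 3 of the 10 cumulus and ovulatory genes are paired, AREG, BTC and ADAMTS1, with at most 6 counts each over the whole set. Of the theca and stroma genes 7 of 13 are paired and 3 were tested, of which 0 fell, where 18.1% of all genes were called as falling, and COL1A2, a chain of type I collagen, rose by 0.27 per 10 μm (edgeR adjusted p = 0.0205). COL1A1, the other chain of the same collagen, had 24 counts in 2 oocytes. Of the endothelial genes 2 were tested and ACVRL1, a receptor of the TGF-β family, fell by 0.30 (adjusted p = 0.00408). The other, CLDN5, had a slope of 0.13 (edgeR adjusted p = 0.543). Of the immune genes 9 were tested, with a median slope of -0.07, and 2 were called as falling and 0 as rising. CD74, the invariant chain of MHC class II, fell by 0.95 (edgeR adjusted p = 0.00158) and CYBB, a subunit of the NADPH oxidase, fell by 0.26 (adjusted p = 0.0088). CD68 and CD28 had positive slopes and CSF1R, CD163, CD8B, CD79B and CD247 negative ones, none of them called. These few genes are set beside the 18.1% of all genes that were called as falling. Genes of this and the following lists were paired through the sheets, which sort by detection in the same size groups. Their tests are therefore not fully independent of the sheets. CD74 had 168 counts in 30 oocytes. The erythroid list had 1 gene tested, HBA, with a slope of 0.10 (adjusted p = 0.371). The part of other cells in the counts of GATM and HSD17B1 was not tested.

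The 7 oocyte genes that could be paired mostly had slopes of the other sign from GATM and HSD17B1. In edgeR's trend 5 of them rose and 1 fell, where 14.8% of all genes tested were called as rising and 18.1% as falling, and their median slope was 0.15 per 10 μm beside -0.02 for all genes. ACTL8 rose by 0.42, AURKC, a meiotic kinase, by 0.21, BCAR4 by 0.20, BMP15, a growth factor secreted by the oocyte, by 0.15, and BTG4, which drives the removal of maternal mRNA, by 0.13. The rise of BMP15 was not steady, with 789 CPM under 60 μm, 1380 CPM at 100–109 μm, 722 CPM at 110–119 μm and 1435 CPM over 120 μm. CCNB3, a cyclin of meiosis, fell by 0.20. CPEB1, which controls the translation of maternal mRNA, had a slope of 0.01 (adjusted p = 0.926).

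**Figure D4:**
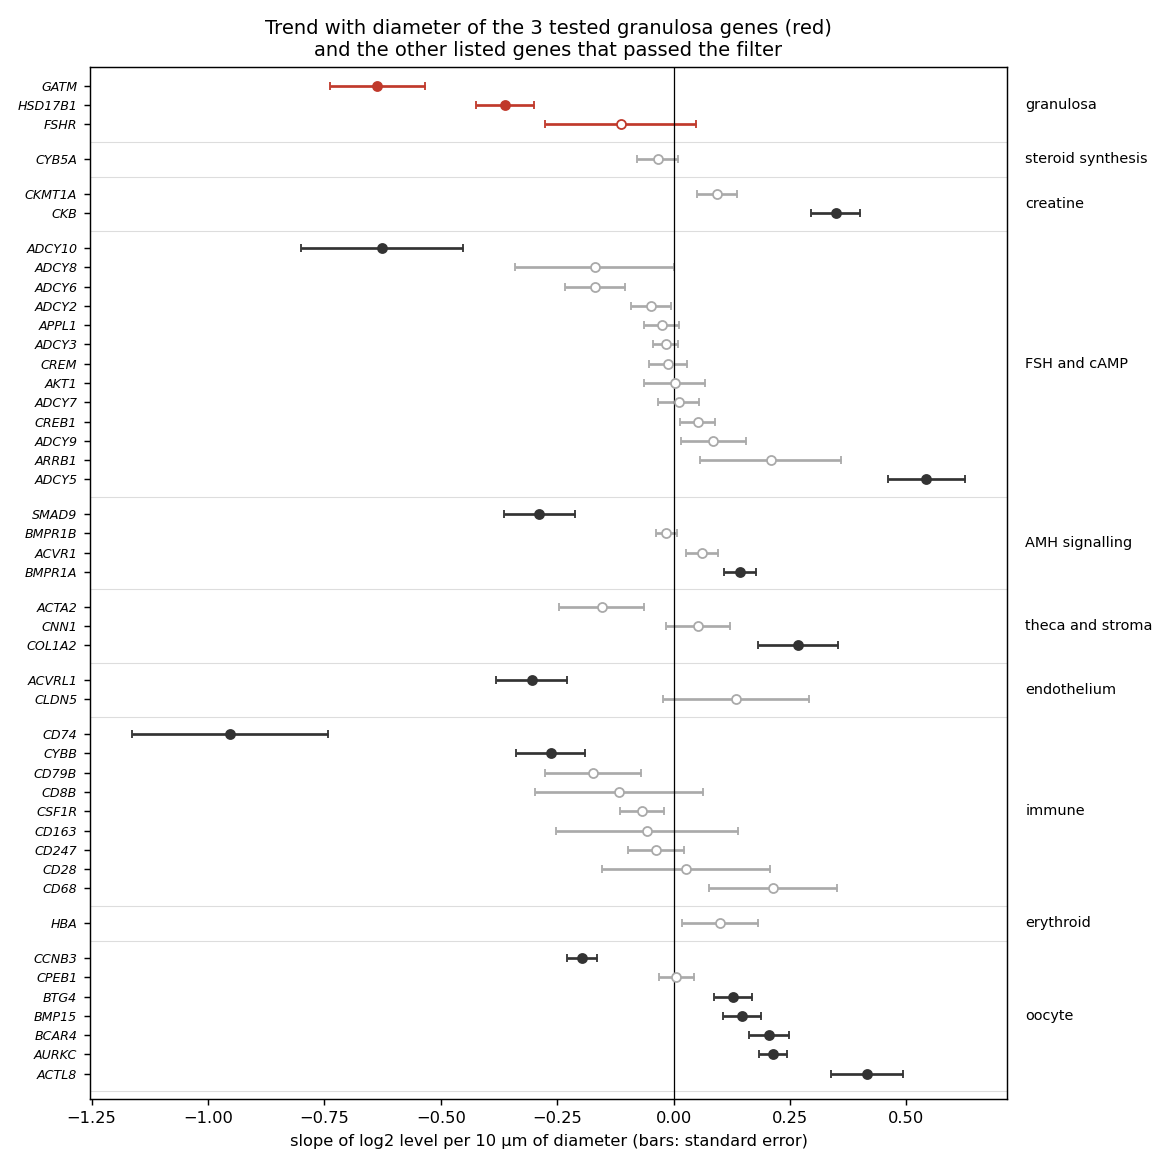
Slope of the log2 level per 10 μm of diameter, with its standard error as a bar, for the 3 members that were tested (red) and for the other listed genes that passed the filter on low counts, grouped by list. Filled points had an adjusted p under 0.05 in edgeR's test. The slopes span all size groups, so those of the members are a description. GATM stands at -0.64 and HSD17B1 at -0.36, while CKB of the creatine list stands at 0.35 and BMP15 of the oocyte list at 0.15.

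Among the 20 pathway genes other than the members that were tested, 2 fell and 3 rose, a share of 25.0% beside the 33% called over all genes. In the FSH and cAMP list 13 genes other than FSHR were tested, with a median slope of -0.01. ADCY10, the soluble adenylyl cyclase, fell by 0.63 (edgeR adjusted p = 0.00846), and ADCY5, a membrane adenylyl cyclase, rose by 0.54 (adjusted p = 4.99e-05). ADCY10 had only 89 counts in 19 oocytes. In the AMH list 4 genes other than AMHR2 were tested, with a median slope of 0.02. SMAD9, a SMAD that relays such signals, fell by 0.29 (adjusted p = 0.00612), and BMPR1A, a type I receptor that can pair with AMHR2, rose by 0.14 (adjusted p = 0.0038).

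In the steroid list CYB5A, cytochrome b5, was the only tested gene other than HSD17B1, with a slope of -0.03 (adjusted p = 0.579). In the creatine list 2 genes other than GATM were tested, with a median slope of 0.22. CKB, the brain-type creatine kinase, rose by 0.35 (adjusted p = 4.51e-05), and its summed level ran from 16.6 CPM in the size group with the least to 263.3 CPM in the group with the most. CKMT1A, a mitochondrial creatine kinase, had a slope of 0.09 (adjusted p = 0.0984). The slopes of CKB and GATM were thus opposite in sign within 1 short list.

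The genes most like each member in their course were taken from the 2922 genes with a symbol, by Pearson's r over the 16 sums (log2 CPM, with the mean of each replicate taken out). For GATM they were OR13J1B (r = 0.96), ELMO1 (0.96) and MOXD1 (0.95), and MOXD1 went from 10.2 CPM under 60 μm to 0.452 CPM over 120 μm. For HSD17B1 they were CHRDL1 (0.95), ABCC3 (0.93) and ATP5MC2 (0.92), and CHRDL1 went from 23.2 CPM to 3.65 CPM. For FSHR they included SYT5 (0.82) and ZC3H4 (0.81). GATM and HSD17B1 had an r of 0.74 with each other, and FSHR had 0.28 with GATM and 0.16 with HSD17B1. The sums share batches and differ in depth, and these values are a description.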

How the data were processed

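The values the authors deposited are raw counts of reads per gene, 1 column per oocyte, with no normalization. The authors trimmed reads with Trim Galore (version 0.6.6, from the submitters' processing notes), mapped them to ARS-UCD1.2 by HISAT2 and counted them in SeqMonk. The treatment of multiply aligned reads, of strand and of overlapping genes is not given in the sources used here. No column was left unused, and each of the 4 genes stood on 1 line.

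Groups, diameters and replicates came from the labels. For 1 oocyte of 100–109 μm the study's table gives another size group than the labels, which were used. The 97 and 68 oocytes of replicates 1 and 2 that passed the study's quality filters entered, with 277126 to 8038061 counts each. Single-oocyte levels are CPM, with 95% exact (Clopper-Pearson) intervals for shares. Symbols came from the study's gene sheets. The copies used here were shortened and pair 3608 IDs (17.0%), which decided which listed genes were examined. All 4 symbols were also found in RefSeq's gene table, which was not used for coordinates.

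Counts were summed by size group and replicate (16 sums), since the labels name no animal. Genes were kept by filterByExpr (minimum count 10, minimum total 15), which left 14087, and TMM normalization and the quasi-likelihood test of edgeR (version 4.0.16) were applied, adjusted by Benjamini-Hochberg over all genes. A standard error is the log2 value divided by the square root of F. Detection was tested with limma (version 3.58.1), weighted by oocytes, for 7918 genes found in 5% to 95% of thinned oocytes. The replicate number marks a library batch, and in all 28 pairs of size groups the deviations of the sums correlated, from 0.40 to 0.69 with a median of 0.58, so the replicate was a block. DESeq2 (version 1.42.0) was an alternative, with no block, RLE normalization, no filter, single oocytes, all 179 oocytes, thinning, slope on group rank, each replicate alone and each sum left out. Leaving out the top oocyte, leaving out 1 oocyte from the 179, thinning to 750000 counts, and the trends under 110 μm and from 60 μm on were added after the data were seen. R 4.3.3 and Python 3.11.15 were used, and the fits of the trend, the ends and detection over all size groups were tested on simulated data.

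The members and the gene lists (granulosa, cumulus and ovulatory, theca and stroma, endothelium, immune, erythroid, oocyte, AMH signalling, FSH and cAMP, steroid synthesis, creatine) were chosen with earlier results of these data known. The genes named are the members, listed genes with an adjusted p under 0.05 in the trend, and the 3 genes with a symbol most like each member, of which 1 is not reported here. Other listed genes with values were named after their values were seen. No sequence is shown.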

Additional observations from a re-analysis of the deposited data

Results flagged for a closer look

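In size groups of 4 to 10 oocytes of 1 replicate, each gene was tested where not all oocytes were at 0, and a single oocyte stood apart from the others by Dixon's criterion in 8 of 23 such combinations of gene and group. Chance flags about 1 in 20, and in groups mostly at 0 any oocyte with a count does so. For FSHR these were an oocyte of 101.01 μm with 14.2 CPM and an oocyte of 135 μm with 4.78 CPM, both of replicate 2. For GATM they were an oocyte of 110–119 μm in replicate 2 with 0.446 CPM, the only one of 7 with a count, and an oocyte of 123.3 μm in replicate 1 with 4.66 CPM. For HSD17B1 they were an oocyte of 98 μm with 6.82 CPM and an oocyte of 126 μm with 3.72 CPM, both of replicate 2, the second on 3 counts. For AMHR2 they were an oocyte of 82.16 μm with 0.684 CPM and an oocyte of 93.39 μm with 0.615 CPM, both of replicate 2.

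Of the 14 oocytes outside the quality-filtered set, 6 had more than 3 counts of a member. An oocyte of 53.97 μm in replicate 1 had 671 counts of GATM (136 CPM), 160 of HSD17B1 (32.4 CPM) and 463 of FSHR (93.8 CPM), against highest values of 63.1, 16.6 and 8.46 CPM in the kept oocytes of its size. The same library had 201 counts of CYP11A1, 11 of CCND2 and 1775 of DCN, a proteoglycan of connective tissue, and 0 of AMHR2, where all kept oocytes together had 31, 20 and 47 counts of the first 3. It had 0.690 FSHR counts per GATM count, against 0.0737 over the 46 kept oocytes below 70 μm and 0.0236 over those of its own replicate. Of the other theca and stroma genes it had 250 counts of ACTA2, 1 of CNN1 and 0 of COL1A1, COL1A2, COL3A1 and ACTG2. Of the endothelial genes it had 99 counts of CLDN5 (20.1 CPM), where all kept oocytes together had 193. It had 3 counts of ACVRL1 and 0 of CDH5, CD34, EGFL7 and EMCN. Of the 7 oocyte genes, AURKC, at 111 CPM, lay within the range of the kept size groups (57.0 to 323.1 CPM), and the others lay below theirs. BMP15 was at 41.8 CPM against 722 to 1435 CPM, BTG4 at 979 CPM against 2862 to 6092 CPM, and ACTL8 at 0 against 2.60 to 28.8 CPM.

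An oocyte of 48.4 μm in replicate 2 had 159 counts of HSD17B1 and 0 of the other 3 genes, and an oocyte of 61.5 μm in replicate 1 had 16 counts of HSD17B1. An oocyte of 77.19 μm in replicate 2 had 34 counts of FSHR and 0 of the others. An oocyte of 102.46 μm in replicate 1 had 37 counts of GATM, 18 of HSD17B1 and 5 of AMHR2, and an oocyte of 106.5 μm in replicate 2 had 25 counts of GATM.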

How the results depend on the processing

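GATM and HSD17B1 kept their direction in all 30 alternatives of the trend and all 24 of the comparison of the ends, with slopes per 10 μm of -0.75 to -0.41 and -0.47 to -0.32. Apart from the trend under 110 μm, these alternatives span groups that placed the genes in their sheets and are a description. The trend under 110 μm was itself not varied. For FSHR the slope was 0.032 without the replicate block, 0.074 in replicate 2 alone, 0.10 under 110 μm and -0.85 with all 179 oocytes, among them the oocyte with 463 counts; without that oocyte it was -0.17. Its log2 difference between the ends was -1.88 with single oocytes as units, -6.67 with all 179 oocytes and -5.40 without the replicate 2 sum over 120 μm. Its detection slope was 0.0054 radians with at least 2 counts required and -0.0927 without thinning, and that of HSD17B1 was -0.0965 in replicate 2 alone. Nothing is read from calls of the members over all size groups. The block pairs sums of 1 library batch: without it 2192 genes were called in the trend against 4642, 695 at the ends against 4207 and 662 in detection against 1285. Under 110 μm 3003 genes were called in the trend. Single oocytes as units gave 7633 and 7427 genes called in the trend and at the ends. Replicates 1 and 2 alone gave 2549 and 2557 genes in the trend and 536 and 351 in detection. The cause of these differences was not tested, and the fits under 110 μm and of each replicate alone also hold fewer sums. Member calls between successive groups were 0 in the report, 1 with DESeq2 (GATM), 1 without the filter (FSHR) and 2 with single oocytes (FSHR). At least 2 genes were found in 63.6% of oocytes, in 32.7% after thinning and in 48.5% with at least 2 counts required.

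With each sum left out in turn the slopes ranged from -0.72 to -0.57 for GATM, -0.38 to -0.34 for HSD17B1 and -0.19 to -0.05 for FSHR, the ends from -7.00 to -3.27, -2.32 to -2.01 and -5.40 to -2.37, and detection from -0.14 to -0.12, -0.13 to -0.10 and -0.05 to -0.04 radians. Genes called ranged from 3915 to 4816, 2954 to 4283 and 950 to 1272, and member calls between successive groups stayed at 0. AMHR2 had a count in 10 oocytes and FSHR in 45, which limits what can be said of both.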
